A study of Homo sapiens with 12 samples.

Results

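The genes described here encode 10 intermediate filament proteins, chosen by name from the 58174 genes that each table lists. The choice was made because the nestin gene NES fell strongly in BE(2)-C upon IGF2BP1 knockdown, so NES in that cell line is given as a description, with no test. The study sequenced poly-A RNA of the hepatoblastoma line Hep-G2 and the neuroblastoma line BE(2)-C to learn which RNAs depend on the RNA-binding protein IGF2BP1. Both lines were harvested 72 h after transfection, the siC groups with control siRNA and the siI1 groups with a pool of siRNAs against IGF2BP1. The siRNA dose was 15 nM for Hep-G2 but 25 nM for BE(2)-C. There were 3 libraries per siRNA and cell line, 12 in all, described by the study as biological triplicates. Between 12852988 and 15721210 reads per library were assigned to genes. Values are FPKM, which are reads scaled to gene length and library size, and the table of each cell line was normalized on its own.

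Intermediate filaments are rope-like polymers that give cells mechanical strength, and their composition differs between tissues. Simple epithelia such as the liver build them from pairs of a type I and a type II keratin, in which KRT18 or KRT19 (type I) joins KRT8 (type II). Mesenchymal cells use vimentin (VIM, type III), neural progenitors add nestin (NES, type IV), and neurons carry the neurofilament chains NEFL, NEFM and NEFH with internexin alpha (INA, type IV) and, in the peripheral nervous system, peripherin (PRPH, type III). IGF2BP1 is an oncofetal RNA-binding protein known to stabilize bound mRNAs, in part by shielding them from microRNAs.

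The libraries carried the levels that their labels call for. IGF2BP1 stood at 48.5, 46.6 and 50.8 FPKM in the siC libraries of Hep-G2 and at 12.6, 10.7 and 10.7 in the siI1 libraries. In BE(2)-C it stood at 21.3, 20.6 and 21.6 FPKM with siC and at 4.85, 4.75 and 4.87 with siI1. Every siI1 library was thus below every siC library of its line, and mean IGF2BP1 was 76.7% lower in Hep-G2 (limma adjusted p = 7.8e-06) and 77.2% lower in BE(2)-C (adjusted p = 1.5e-05). Of 10 hepatic markers, all had an FPKM of at least 1 in each Hep-G2 library and 0 did so in BE(2)-C, where AFP, APOA2, FGB, HNF4A and FOXA2 had no read. Of 10 sympathetic neuroblast markers, all had an FPKM of at least 1 in each BE(2)-C library, while in Hep-G2 only GATA2 did.

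Some Hep-G2 libraries stood apart from the others. The siI1 replicate 2 of Hep-G2 held 8 protein-coding genes with at least 0.5 FPKM that were below 0.1 in the other 5 libraries of that line, among them SFRP2 with 115 reads against 0 and ISLR with 42 against 0, both named after their values were seen. Its summed level of 7 fibroblast and mesenchymal markers was 2.05 FPKM, against 0.922, 0.97 and 1.13 with siC and 0.657 and 0.818 in the other siI1 libraries. COL1A1 was at 0.748 FPKM there, from 107 reads against 19 to 39 in the other Hep-G2 libraries, and COL1A2 had 77 reads against 0 to 4. PDGFRB with 57 reads and LUM with 2 lay within the range of the other libraries, and PDGFRA had a single read. Of the 7 markers, 0 reached an FPKM of 1 in all libraries, a count that reads in a single library cannot raise. The siI1 replicate 1 held 3 such genes (CST7, S100A8 and S100A12), also named after their values were seen. The summed level of 6 endothelial and blood markers also differed by siRNA in Hep-G2, at 0.143, 0.166 and 0.155 FPKM with siC and 1.08, 0.438 and 0.479 with siI1, of which HBB took the most, with 0 reads in each siC library and 12, 4 and 5 with siI1. In BE(2)-C, that sum was 0.077, 0.0637 and 0.0979 FPKM with siC and 0.19, 0.215 and 0.156 with siI1, again without overlap. The part of these markers in the results on intermediate filaments was not tested. Values without siI1 replicate 2 of Hep-G2 are given below for VIM and for some counts. Without that library, INA fell by 1.55 (limma adjusted p = 0.037) and KRT19 by 0.54 (limma adjusted p = 0.043) in Hep-G2.

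The 2 lines held different sets of filament genes. In control Hep-G2, KRT19 had the highest FPKM at 476 ± 37.1 (SD, n = 3), followed by KRT18 at 308 ± 24.5, KRT8 at 300.3 ± 17.3 and NES at 49.7 ± 2.61. This order depends on the gene lengths used, 2336 nt for KRT19, 3218 nt for KRT18 and 6881 nt for KRT8. In reads KRT8 was the highest, with 29810 to 30424 per siC library. KRT19 had 15866 to 16528 reads and KRT18 14095 to 14717. KRT18 and KRT8 did not differ beyond their spread, nor did INA at 0.309 ± 0.0645 and VIM at 0.253 ± 0.0649. The neurofilament genes NEFL, NEFM and NEFH and PRPH had 0 to 2 reads per Hep-G2 library, under the 3 reads taken as the limit of detection, so no change is given for them there. In control BE(2)-C, the order began with PRPH at 170.0 ± 12.5 FPKM and NEFM at 152 ± 6.88, which overlapped. NEFL followed at 105 ± 4.02, INA at 75.4 ± 1.45 and NEFH at 63.0 ± 0.578, and then came VIM at 43.3 ± 2.68 and NES at 40.3 ± 0.847, which overlapped. The keratins were far lower, with KRT19 at 1.24 ± 0.299, KRT8 at 0.328 ± 0.0675 and KRT18 at 0.264 ± 0.0405 FPKM. NES was thus lower than the neuronal filament genes of control BE(2)-C and above the keratins. Levels in tables that were normalized separately are only roughly comparable, and levels of different genes depend on the gene lengths used.

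**Figure D1:**
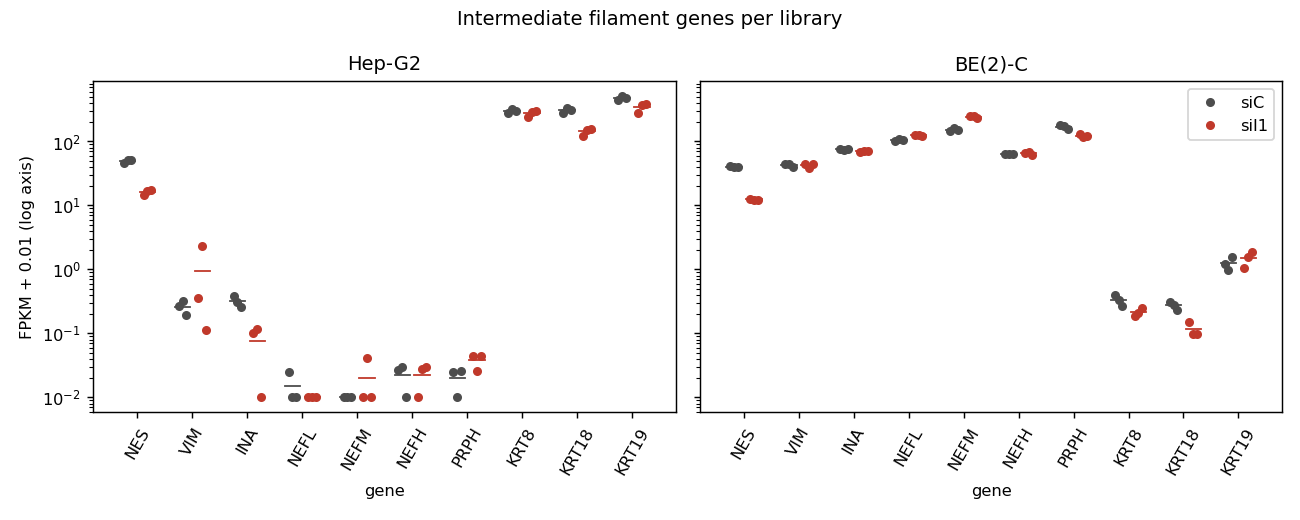
FPKM of each of the 10 genes in every library, siC in grey and siI1 in red, on a log axis after adding 0.01, with bars at the group means. Keratins dominate in Hep-G2 and neuronal filament genes in BE(2)-C, and NES is lower with siI1 in both panels.

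The promoters of NES, INA and PRPH are shown because these genes were lower with siI1 in at least 1 of the lines. NES (ENSG00000132688) lies at chr1:156668763-156677407 in GRCh38, INA (ENSG00000148798) at chr10:103277138-103290346, PRPH (ENSG00000135406) at chr12:49295147-49298686 and KRT18 (ENSG00000111057) at chr12:52948871-52952906. RefSeq promoters (GRCh38.p14) were found for 5 of the 10 genes, NES, VIM, INA, PRPH and KRT8, and each runs from 250 bases before to 50 bases after the start of the gene. NEFL, NEFM, NEFH, KRT18 and KRT19 were not matched. The promoter of NES lies at chr1:156677358-156677657 on the minus strand, that of INA at chr10:103276888-103277187 and that of PRPH at chr12:49294897-49295196, both on the plus strand. Capitals mark GC boxes (GGGCGG, on either strand) in NES and INA and the TATA box (TATAAA) in PRPH.
NES: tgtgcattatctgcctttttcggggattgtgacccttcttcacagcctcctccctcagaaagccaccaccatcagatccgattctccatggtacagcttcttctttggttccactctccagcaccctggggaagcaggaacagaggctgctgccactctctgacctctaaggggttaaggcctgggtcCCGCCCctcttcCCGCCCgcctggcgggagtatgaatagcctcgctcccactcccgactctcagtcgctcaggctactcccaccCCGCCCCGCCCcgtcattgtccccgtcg
INA: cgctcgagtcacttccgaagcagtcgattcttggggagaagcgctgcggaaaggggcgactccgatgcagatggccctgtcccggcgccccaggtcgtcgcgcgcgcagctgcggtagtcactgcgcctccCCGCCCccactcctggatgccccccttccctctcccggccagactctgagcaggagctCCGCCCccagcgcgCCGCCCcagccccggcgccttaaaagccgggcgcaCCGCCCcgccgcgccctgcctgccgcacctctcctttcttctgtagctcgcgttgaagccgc
PRPH: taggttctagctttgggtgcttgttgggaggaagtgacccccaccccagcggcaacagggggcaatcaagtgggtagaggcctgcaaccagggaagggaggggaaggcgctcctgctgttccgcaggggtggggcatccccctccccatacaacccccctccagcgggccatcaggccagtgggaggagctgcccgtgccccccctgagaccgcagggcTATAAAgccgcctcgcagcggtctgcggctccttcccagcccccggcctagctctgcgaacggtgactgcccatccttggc
The GC box occurred 4 times in the NES promoter, 4 times in that of INA and once in that of VIM, while 45% of 35116 promoters of this length held it. The TATA box occurred once, in PRPH, against 11.5% of all promoters. The E-box (CANNTG, 68.7% of promoters, not in capitals) was matched 2 times in INA, once in PRPH and 3 times in KRT8, whereas the CCAAT box (CCAAT, 34.6%) and the AP-1 motif (TGANTCA, 7.71%) were matched in none of the 5. All motifs were searched on both strands. A match describes these letters only.

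The 3′UTRs were searched for the match to the seed of let-7a, a microRNA whose targets IGF2BP1 is known to protect.
let-7a-5p: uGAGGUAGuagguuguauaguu
Capitals mark the seed, and the match searched was CTACCTC. None of the 10 genes had it in the 3′UTR of the canonical transcript, while 9.95% of 19184 annotated transcripts did. NES has a 3′UTR of 559 nt, against a median of 1101 nt over those transcripts, and its absence of a match says only that these letters are not in this window.

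NES and KRT18 fell in Hep-G2, and INA and KRT19 were also lower, in a line where the keratins are the main filament genes. With siI1, 4 of the 6 tested genes fell and 0 rose, beside 23.0% of 19436 tested genes lower and 21.9% higher. The other 4, the neurofilament genes and PRPH, were under the filter of FPKM 0.1 in 3 libraries, and INA passed that filter through all 3 siC libraries but a single siI1 library, so the count is not taken as support. In bulk RNA, fewer cells with a gene and less RNA per cell cannot be told apart. NES stood at 46.8, 51.8 and 50.5 FPKM with siC and 14.8, 16.6 and 17.6 with siI1. The groups were separated by a wide gap, and NES fell by 1.60 on the log2 scale (SE 0.08, limma adjusted p = 1.8e-05), lower in 3 of 3 siI1 libraries. In Hep-G2, its level is drawn from 1109 to 4137 reads per library.

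KRT18, the type I keratin of simple epithelium, stood at 282, 331 and 310 FPKM with siC and at 122, 153 and 155 with siI1. Every siI1 library was below every siC library, and KRT18 fell by 1.11 (SE 0.11, limma adjusted p = 3.0e-04). KRT8, its type II partner, stood at 283, 318 and 299.8 FPKM with siC and at 237, 292 and 300.0 with siI1. The groups overlapped and no change was detected (log2 fold change -0.13, 95% interval -0.38 to 0.12, adjusted p = 0.38), but after scaling to equal sums of FPKM KRT8 fell by 0.29 (adjusted p = 0.0095, range 0.0095 to 0.82 over the alternatives). This scaling moved the median of all genes in Hep-G2 by -0.15. KRT8 and KRT18 overlap by 1084 nt on opposite strands in the GENCODE annotation and the libraries were strand-specific, but the strand setting of the counting is not given, so reads in that stretch are uncertain, while the KRT8P pseudogenes held at most 0.562% of the KRT8 reads.

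KRT19, a further type I keratin, stood at 437, 511 and 480 FPKM with siC and at 279, 370 and 384 with siI1. Every siI1 value was below every siC value, and KRT19 fell by 0.48 (SE 0.14, limma adjusted p = 0.027). The call is near its threshold: the adjusted p was 0.081 without siC replicate 2, 0.078 without siC replicate 3, 0.055 with median centring, 0.058 with no filter and 0.052 with no mean-variance trend, and ranged from 0.0015 to 0.081 over the alternatives. INA was at 0.379, 0.295 and 0.252 FPKM with siC and at 0.0915, 0.106 and 0 with siI1, which are 19, 13, 12, 4, 5 and 0 reads. INA fell by 1.36 (SE 0.38, adjusted p = 0.025) on a scale that understates changes of low genes. Its call rests on 0 to 5 reads per siI1 library and 12 to 19 per siC library, so it is uncertain. The INA call was lost without siC replicate 1, 2 or 3 (adjusted p = 0.088, 0.066 and 0.055), without siI1 replicate 3 (0.059) and with a pseudocount of 0.01 (0.079). With limma voom on the recovered reads INA fell by 2.58 (adjusted p = 0.0094), the lowest of a range that reached 0.088 over the alternatives.

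VIM rested on the library that stood apart. It stood at 0.262, 0.313 and 0.184 FPKM with siC and at 0.344, 2.33 and 0.102 with siI1. The value of siI1 replicate 2 exceeded all others, and the log2 fold change of 0.79 (95% interval -1.23 to 2.80, adjusted p = 0.49) became -0.22 without it (adjusted p = 0.74), so no direction is given for VIM. An antisense RNA that overlaps VIM by 1778 nt had 1 to 11 reads in these libraries, against 7 to 175 reads for VIM.

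The make-up of the keratins also differed between the siRNA groups of Hep-G2. The ratio of type I to type II keratin, (KRT18 + KRT19) / KRT8, stood at 2.54, 2.65 and 2.63 in the siC libraries and at 1.69, 1.79 and 1.80 in the siI1 libraries. The groups did not overlap, with 2.61 ± 0.0588 against 1.76 ± 0.0598 (SD, n = 3 each). The size of this ratio, and of the shares that follow, depends on the gene lengths used. These were 6881 nt for KRT8, 3218 nt for KRT18 and 2336 nt for KRT19, the same in every library. The ratio is therefore not read as an excess of type I keratin RNA. In the sum of the 10 genes, KRT18 made up 27.1% with siC and 18.4% with siI1, and KRT8 26.5% and 35.4%, while the sum was 1134 ± 81.3 and 781 ± 111 FPKM. The ratios are a description with no test, because the genes were chosen with results of these data known. The smallest two-sided p that an exact permutation test of 3 libraries against 3 can give is 0.1.

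**Figure D2:**
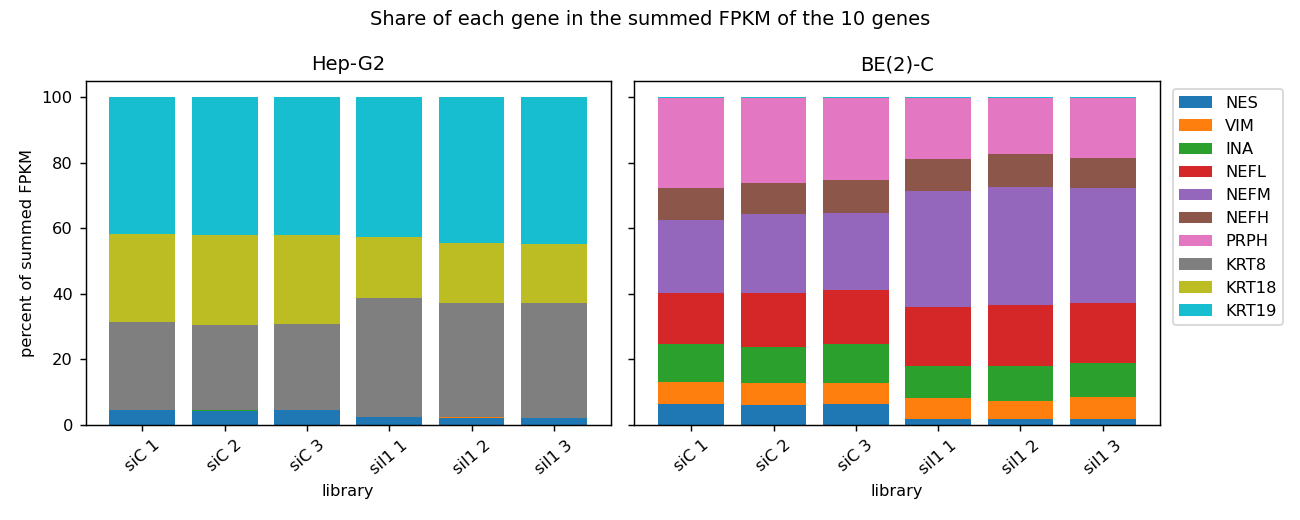
Percent of the summed FPKM of the 10 genes in each library, with one bar per library and one colour per gene. In Hep-G2 the share of KRT18 was smaller with siI1 (18.4% against 27.1%), and in BE(2)-C that of NEFM was larger (35.5% against 23.3%).

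In BE(2)-C, the neurofilament genes NEFM and NEFL rose while PRPH fell, and NES fell as the choice of genes implies. Leaving NES out, 1 of the 9 tested genes was lower and 2 were higher, beside 14.8% of 18656 tested genes lower and 13.3% higher. Since the genes were chosen on this contrast, nothing is read from these counts. NES stood at 41.3, 39.8 and 39.8 FPKM with siC and at 12.8, 12.3 and 12.1 with siI1. The groups were far apart, the mean fell by 1.69 on the log2 scale, and no test is given.

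NEFM, the medium neurofilament chain, stood at 147, 160 and 149 FPKM with siC and at 246, 246 and 236 with siI1. Every siI1 library exceeded every siC library, with a log2 fold change of 0.68 (SE 0.05, limma adjusted p = 2.8e-04). NEFL, the light chain on which filaments are assembled, stood at 102, 110 and 103 FPKM with siC and at 125, 128 and 123 with siI1. NEFL rose in 3 of 3 libraries by 0.26 (SE 0.04, adjusted p = 0.0061). The heavy chain gene NEFH stood at 63.7, 62.8 and 62.6 FPKM with siC and at 66.6, 68.8 and 62.1 with siI1. These groups overlapped, and the log2 fold change was 0.06 (95% interval -0.05 to 0.17, adjusted p = 0.39).

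PRPH, the type III protein of peripheral neurons, stood at 181, 173 and 156 FPKM with siC and at 130, 117 and 122 with siI1. Every siI1 value was lower, and PRPH fell by 0.47 (SE 0.07, limma adjusted p = 0.0030). INA stood at 76.9, 74.0 and 75.2 FPKM with siC and at 67.4, 71.8 and 71.4 with siI1. The siI1 values were lower in 3 of 3 libraries but the change of -0.10 did not pass (95% interval -0.20 to -0.0029, adjusted p = 0.12). VIM, expressed in many mesenchymal and neural cells, stood at 45.0, 44.7 and 40.2 FPKM with siC and 44.2, 38.0 and 44.4 with siI1. Those groups overlapped, and its log2 fold change was -0.04 (adjusted p = 0.74).

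The keratins of BE(2)-C were measured from few reads. KRT8 stood at 0.395, 0.329 and 0.26 FPKM with siC and at 0.179, 0.195 and 0.241 with siI1, from 19 to 39 reads (log2 fold change -0.48, adjusted p = 0.21). KRT18 stood at 0.303, 0.267 and 0.222 FPKM with siC and at 0.141, 0.0879 and 0.0895 with siI1, from 4 to 14 reads, and passed the filter through 3 siC libraries and 1 siI1 library. Its log2 fold change of -0.82 did not pass (limma adjusted p = 0.069) but did so with no mean-variance trend (0.015) and with voom (0.046), in a range of 0.015 to 0.17 over the alternatives. KRT8P pseudogenes held 74 to 111 reads with siC and 83 to 127 with siI1, more than KRT8 itself, so its level is uncertain there. KRT18P pseudogenes held 4 to 10 reads with siC and 14 to 22 with siI1, the opposite direction to KRT18, and the part of reads shared between them was not tested. KRT19 stood at 1.19, 0.968 and 1.56 FPKM with siC and at 1.05, 1.54 and 1.85 with siI1, and the groups overlapped (log2 fold change 0.23, adjusted p = 0.54).

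**Figure D3:**
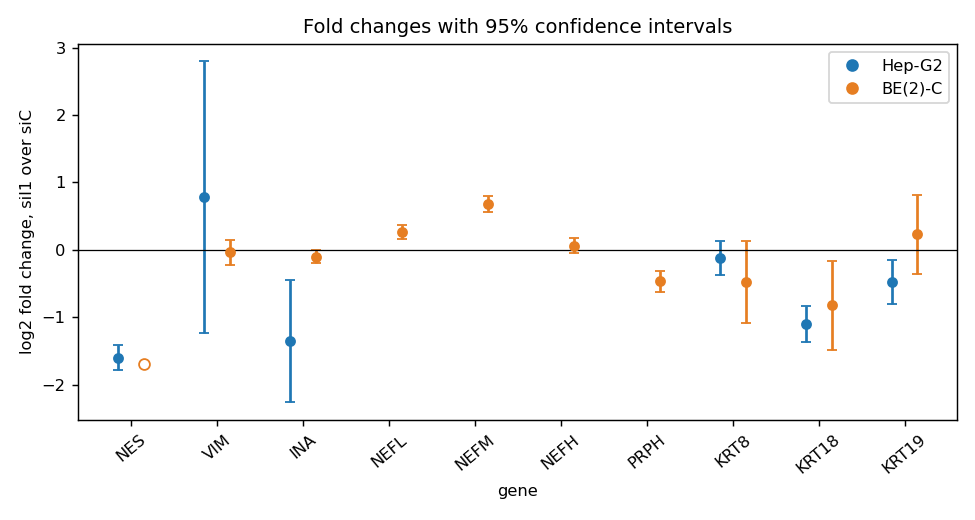
Log2 fold change of siI1 over siC for each tested gene, Hep-G2 in blue and BE(2)-C in orange, with 95% intervals from limma and an open circle without interval for NES in BE(2)-C. NES lies near -1.60 in Hep-G2 and -1.69 in BE(2)-C, while the intervals of VIM in Hep-G2 span zero.

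In BE(2)-C, the balance of the neurofilament chains differed between the siRNA groups. The ratio of NEFM to NEFL stood at 1.45, 1.46 and 1.44 in the siC libraries and at 1.96, 1.92 and 1.92 in the siI1 libraries, or 1.45 ± 0.0119 against 1.94 ± 0.0254 (SD, n = 3 each). NEFM took 23.3% of the summed FPKM of the 10 genes with siC and 35.5% with siI1, and NES 6.20% and 1.81%. The sum itself was 651 ± 19.8 FPKM with siC and 684 ± 9.69 with siI1. The 7 fibroblast and mesenchymal markers summed to 29.3, 25.3 and 29.5 FPKM with siC and 37.0, 38.3 and 36.2 with siI1 in this line, of which 3 rose and 0 fell, beside 13.3% of all tested genes higher and 14.8% lower, with LUM at 6.36 ± 0.649 FPKM with siC and 13.5 ± 0.657 with siI1 and DCN at 3.85 ± 0.239 and 6.12 ± 0.0909. PDGFRA, the other gene that rose, passed the filter of FPKM 0.1 through its siI1 libraries alone, and PDGFRB, the most abundant, overlapped between the groups. Their part in the results on filament genes was not tested.

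**Figure D4:**
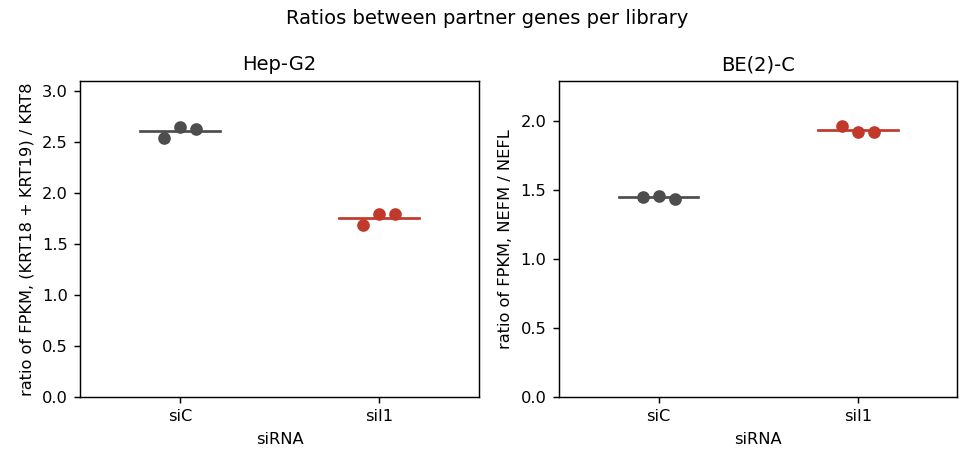
Ratio of FPKM of (KRT18 + KRT19) to KRT8 in Hep-G2 and of NEFM to NEFL in BE(2)-C, with a point per library and a bar at each group mean, on axes that start at 0. The keratin ratio was 2.61 with siC and 1.76 with siI1, and the neurofilament ratio 1.45 and 1.94.

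The difference between the lines was tested as an interaction, in which the fold change in Hep-G2 is taken off that in BE(2)-C. Leaving NES out, 1 of the 5 genes tested in both lines was called, INA, beside 40.2% of 15362 genes called in either direction. The INA fold changes differed by 1.25 (SE 0.31, limma adjusted p = 0.0079), or 2.48 with voom (adjusted p = 0.0032), in a range of 9.2e-04 to 0.072 over the alternatives. As the Hep-G2 side rests on 0 to 19 reads, this call carries the limit given above. It was lost with a pseudocount of 0.01 (0.062) or 1 (0.072). KRT19 differed by 0.71 (adjusted p = 0.067), KRT8 by -0.36 (0.13) and VIM by -0.82 (0.51), of which VIM became 0.18 without siI1 replicate 2 of Hep-G2 (0.73). KRT19 was called with a pseudocount of 1 (0.029), a filter of FPKM 1 (0.048), equal sums of FPKM (0.023) or the replicate block (0.023). It was also called without siC replicate 3 (0.028) or siI1 replicate 1 (0.013) of BE(2)-C, in a range of 0.013 to 0.16. With the filter of FPKM 1, INA was not tested and KRT19 was the 1 gene called. KRT8 was called without siI1 replicate 1 of Hep-G2 (0.044) or siC replicate 3 of BE(2)-C (0.038), in a range of 0.038 to 0.94. KRT18 differed by 0.28 (0.24), but by 0.91 with a pseudocount of 1 (1.3e-04) and 0.46 with equal sums (0.028), and by -0.15 with a pseudocount of 0.01 (0.66) and -0.14 with voom (0.88), the last being the highest of the range. No direction is given for it. A difference that did not pass does not show that the lines respond alike. For NES the difference was -0.09 on the log2 scale, given with no test, and 0.10 with equal sums of FPKM.

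The genes whose pattern was most like that of NES were PPM1F, IST1, PIM1, IGF2BP1 and SMARCD2, out of 11083 protein-coding genes tested in both lines. Pearson r over the 12 libraries, after the siC mean of the own line was taken off, was 0.997, 0.995, 0.993, 0.991 and 0.991. The libraries fall into siC and siI1 clusters, so r describes a shared split and carries no p. PPM1F, a protein phosphatase, was 4.97 ± 0.0822 FPKM with siC and 2.81 ± 0.0363 with siI1 in Hep-G2. SMARCD2, a subunit of a chromatin remodelling complex, was 36.1 ± 1.54 and 15.7 ± 1.68 FPKM in the same line.

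All human intermediate filament genes, from the keratins to the lamins, were taken as a list of 69 that includes the 10 genes described here, so its counts repeat their calls. In Hep-G2, 21 were tested, of which 6 were lower (INA, KRT18, KRT19, KRT37, LMNA and NES) and 2 higher (KRT38 and LMNB2), beside 23.0% of all tested genes lower and 21.9% higher. KRT37 passed the filter of FPKM 0.1 through its siC libraries alone and KRT38 through its siI1 libraries alone, which favours the direction they were called in, and INA has the limit given above. Counts of the lower genes fell to 3 without siC replicate 1 and to 2 without siC replicate 2 or 3, those of the higher genes to 1 without siI1 replicate 2 or 3. In BE(2)-C without NES, 16 of 68 were tested, of which 5 were lower (KRT10, LMNA, LMNB2, PRPH and SYNM) and 2 higher (NEFL and NEFM), with 3 lower without siI1 replicate 2, beside 14.8% of all tested genes lower and 13.3% higher. LMNA, KRT10 and, in BE(2)-C, LMNB2 were named after their values were seen. LMNB2, a B-type lamin of the nuclear envelope, was 35.4 ± 0.756 FPKM with siC and 57.2 ± 1.29 with siI1 in Hep-G2 (log2 fold change 0.69, adjusted p = 5.3e-05). SYNM, the synemin gene, fell by 0.95 in BE(2)-C, from 9.39 ± 0.403 to 4.80 ± 0.231 FPKM (adjusted p = 2.4e-04).

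The counts by type repeat those of the list, and with so few genes each nothing is read from them. Over all tested genes, Hep-G2 had 23.0% lower with siI1 and 21.9% higher, and BE(2)-C had 14.8% lower and 13.3% higher. The keratins of type I had 3 of 9 tested genes lower and 1 higher in Hep-G2 (median log2 fold change -0.47), with KRT37 and KRT38 under the same limit, and 1 of 3 lower in BE(2)-C (-0.33), beside a median over all genes of 0.0069 and 0.016. The type II keratins had 0 of 4 and 0 of 1 called (0.13 and -0.48), at type III it was 0 of 1, which is VIM with the limit given above, and 1 of 3, lower (median -0.33 in BE(2)-C), and at type IV 2 of 3 lower, and, with NES left out in BE(2)-C alone, 1 of 5 lower and 2 higher (-1.36 and 0.06), so these are different sets of genes. Lamins had 1 of 3 lower and 1 higher in Hep-G2 and 2 of 3 lower in BE(2)-C (0.016 and -0.18), and the beaded filament genes 0 of 1 called in each (-0.03 and 0.07). Among linkers such as plakins, which are not in that list and tie filaments to junctions, 7 of 14 tested genes fell and 3 rose in Hep-G2 (-0.32), and 3 of 9 were lower in BE(2)-C (-0.16). TCHP, trichoplein, which binds keratins, was lower in Hep-G2, where it fell by 1.28 (2.97 ± 0.122 to 1.18 ± 0.238 FPKM, adjusted p = 8.6e-04) and by 0.54 in BE(2)-C (adjusted p = 0.0016). PPL, the periplakin gene, rose in Hep-G2 by 1.04, from 4.36 ± 0.0853 to 9.08 ± 0.60 FPKM (adjusted p = 6.6e-05). Other linker genes went the other way there, with DST lower by 0.91 (adjusted p = 0.0042) and MACF1 by 0.84 (adjusted p = 0.0011).

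Genes that accompany nestin or keratins in cells gave mixed counts, to be read beside the shares of all tested genes, 23.0% lower and 21.9% higher in Hep-G2, 14.8% and 13.3% in BE(2)-C. In the neural progenitor list, 3 of 11 were lower and 4 higher in Hep-G2 (median 0.09), and 2 of 12 lower and 4 higher in BE(2)-C (0.04). SOX9 fell by 0.77 in Hep-G2 (60.2 ± 2.81 to 35.4 ± 2.05 FPKM, adjusted p = 1.2e-04) and by 0.78 in BE(2)-C (adjusted p = 0.0014). Others rose, ID3 by 1.23 in Hep-G2 (29.3 ± 0.667 to 68.6 ± 2.47 FPKM, adjusted p = 9.6e-06) and SOX2 by 1.42 in BE(2)-C (0.53 ± 0.162 to 1.55 ± 0.0836 FPKM, adjusted p = 0.0037), while SOX4 fell by 1.19 in the first line and rose by 0.51 in the second. Neuronal microtubule, axon and synapse genes had 0 of 7 lower and 1 higher in Hep-G2 (0.05), KIF5C, which passed the filter through its siI1 libraries alone, and 4 of 15 lower and 5 higher in BE(2)-C (-0.07). There SNAP25, a synaptic fusion protein, rose by 0.80 (adjusted p = 1.7e-04), and SYT1, the calcium sensor of vesicle fusion, fell by 0.97 (adjusted p = 2.0e-04). Simple epithelium genes had 4 of 10 lower and 2 higher in Hep-G2 (-0.37) and 1 of 6 lower in BE(2)-C (-0.05), and CLDN4, a tight junction claudin, fell by 1.41 in Hep-G2 (34.3 ± 2.04 to 12.8 ± 1.26 FPKM, adjusted p = 3.7e-05). In the same line, CDH1 fell by 1.35 (5.93 ± 0.202 to 2.27 ± 0.224 FPKM, limma adjusted p = 7.4e-05) and TJP1 by 0.67 (adjusted p = 0.0061). The more abundant claudin gene CLDN6 rose there by 0.95 (129 ± 7.03 to 250.3 ± 29.8 FPKM, adjusted p = 3.5e-04), as did EPCAM by 0.72 (adjusted p = 4.2e-04). Of the marker lists, the hepatic markers had 3 of 10 lower and 6 higher in Hep-G2, the neuroblast markers 4 of 10 lower and 3 higher in BE(2)-C.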

How the data were processed

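The authors trimmed reads with cutadapt 1.14, aligned them to hg38 with HISAT2 2.1.0, used SAMtools 1.5, counted genes with featureCounts 1.5.3 on Ensembl 89 and normalized with edgeR 3.30.3; reads were 150 nt. Libraries were made strand-specific; the strand setting of the counting is not given in the sources used here. The deposited tables hold FPKM per library, and 100% of the nonzero values were within 0.05 of a whole number of reads, so reads were recovered. The authors' comparison columns (log2 fold change, p and FDR) were not used.

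Genes at FPKM 0.1 in at least 3 of 6 libraries were tested on log2(FPKM + 0.1) by limma 3.58.1 (R 4.3.3), using moderated errors that follow the mean-variance trend, and p-values were adjusted after Benjamini and Hochberg across the table, at 0.05; the interaction used all 12 libraries. Calls that rest on few reads are uncertain. Figures were drawn with Matplotlib 3.10.9 and NumPy 2.4.6 in Python 3.11.15.

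Named genes are the 10 members and IGF2BP1, up to 6 per list with adjusted p under 0.05 and a log2 fold change of at least 0.5 in size, the 5 most like NES and the markers; genes outside this rule are marked in the report as named after their values were seen. The genes and lists were chosen with earlier results of these data known. Alternatives covered pseudocount, filter, trend, scaling, replicate block, voom, threshold and leaving out each library; one was added after seeing the data, the mesenchymal count of Hep-G2 without siI1 replicate 2, and the counts of that list are not reported here.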

Additional observations from a re-analysis of the deposited data

Results flagged for a closer look

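INA was called by the interaction test between the lines, with a log2 fold change 1.25 higher in BE(2)-C than in Hep-G2. It was at 0.252 to 0.379 FPKM with siC and 0 to 0.106 with siI1 in Hep-G2, and at 74.0 to 76.9 and 67.4 to 71.8 in BE(2)-C. The Hep-G2 values stand on 0 to 19 reads, and INA passed the filter there through 3 siC libraries and 1 siI1 library. With limma voom on the recovered reads the difference was 2.48. The call was lost with a pseudocount of 0.01 (adjusted p = 0.062) or 1 (0.072), in a range of 9.2e-04 to 0.072 over the alternatives, and with a filter of FPKM 1 INA was not tested, so the call is weak.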

How the results depend on the processing

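Over the alternatives, NES and KRT18 in Hep-G2 and NEFM, NEFL and PRPH in BE(2)-C kept their direction and their side of the threshold. The number of genes lower in Hep-G2 was 4, with 5 at equal sums of FPKM and 2 at an adjusted p of 0.01. It was 3 with a pseudocount of 0.01, no filter, a filter of FPKM 1, no mean-variance trend or median centring. Over leaving out each library it was 2 to 4. In BE(2)-C it was 1, and 2 with no mean-variance trend or with voom. The number of genes that differ between lines was 1, and 0 with a pseudocount of 0.01, 2 with a pseudocount of 1, 4 with no filter and 3 with equal sums, and 1 to 3 over leaving out each library. For the wider list in Hep-G2, the 6 lower genes became 10 with equal sums, 9 with voom and 2 at 0.01. They became 4 with a pseudocount of 0.01, no filter, a filter of FPKM 1 or median centring, and 5 with no mean-variance trend. Leaving out each library gave 2 to 6. The 2 higher genes became 1 with a filter of FPKM 1 and 3 with no mean-variance trend, with 1 to 2 over leaving out each library. For that list in BE(2)-C, the 5 lower genes became 7 with voom, 4 with no mean-variance trend or median centring and 3 at 0.01. Over leaving out each library they were 3 to 5. The stricter threshold lowers counts by construction, and the cause of the other moves was not tested.

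With the replicate block, 2 genes differed between the lines instead of 1 (INA and KRT19), no other count of members moved, and the wider list in Hep-G2 had 3 higher genes. Deviations of same-numbered libraries correlated in Hep-G2 at 0.32, 0.32 and -0.07, those of BE(2)-C at 0.20, -0.02 and 0.02. The closest match had the same number for replicates 1 and 2 of Hep-G2 and replicate 1 of BE(2)-C, and not for the others. These values do not settle whether the numbers pair the libraries.

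Directions reversed for VIM in Hep-G2, to -0.22 without siI1 replicate 2 (range over leaving out each library -0.22 to 1.57), for VIM in BE(2)-C, to 4.4e-04 with median centring and 0.034 without siI1 replicate 2 (range -0.092 to 0.034), for the NES difference between lines, to 0.10 with equal sums, for the VIM difference, to 0.18 without siI1 replicate 2 of Hep-G2 (range -1.61 to 0.18), and for the KRT18 difference, to -0.15 with a pseudocount of 0.01 and -0.14 with voom. Genes near the detection limit depend on the pseudocount, and depth limits what can be seen of INA in Hep-G2 and of KRT8 and KRT18 in BE(2)-C.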
